A study of Mus musculus and Homo sapiens
Mus musculus with 12 samples.

Results

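Transcripts of the mitochondrial genome were measured in nuclei of mouse brain prepared by snHH-seq, a droplet method for total RNA of single nuclei. The members are all genes whose symbol starts with "mt-" in the 7 brain count tables, 32 of 34496 gene symbols: 12 protein-coding genes, 2 rRNA genes and 18 tRNA genes. The GENCODE M21 annotation of GRCm38 holds 37 genes on the mitochondrial genome, and 5 of them (mt-Atp8, mt-Ty, mt-Ts1, mt-Td and mt-Tk) had no row in the tables. The unit is the unique fragment identifier (UFI), which counts each reverse transcribed fragment once.

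The brains came from wild-type C57BL/6J males, young adult by the study's methods, with no transgene or drug. The 7 libraries differed in storage (nuclei isolated from frozen or from fresh tissue) and in the reverse transcription primer (with or without a preindex). The preindex is a barcode on that primer, which thus becomes part of the DNA copied from RNA inside the nucleus, before droplets are made. There were 2 libraries from frozen tissue without preindex, 2 from frozen tissue with preindex, 2 from fresh tissue without preindex and 1 from fresh tissue with preindex. The labels do not say whether libraries of a group came from separate animals, so p-values measure the spread between libraries, which may be technical. By the protocol given for all 7 libraries, tissue was ground in liquid nitrogen, nuclei were released with mild detergents and fixed, and RNA was reverse transcribed with random primers.

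The 7 libraries held 11198 nuclei and 700 to 3100 nuclei each, with 8605214 to 42439731 UFIs per library and a median of 9011 to 27543 UFIs per nucleus. A treatment field in the labels named the opposite primer for 4 of the 7 libraries, while the barcode length (30 bases without and 40 bases with a preindex) followed the library titles, which were used here. Libraries with barcodes of equal length shared 0 to 10 barcodes. A cluster of 455 nuclei expressing kidney tubule genes was found in the frozen preindexed libraries alone, and a cluster of 20 nuclei expressing liver genes in the fresh preindexed library alone. Summed kidney markers stood at 1003 to 1107 CPM (UFIs per 1000000 UFIs of the library) in the frozen preindexed libraries and at 12.2 to 21.6 in the other 5. Summed cerebellar granule neuron markers stood at 84.2 to 177 CPM without preindex and at 9.81 to 11.7 CPM with one. All 8 neuron markers were detected in each library, and the labels name no tissue but brain. The kidney-like and liver-like nuclei went into all values below unless their removal is stated.

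The mitochondrial genome is a small circle that is transcribed from both strands as long precursors, which are cut, largely at the tRNAs lying between the other genes, into rRNAs, mRNAs and tRNAs. Its mRNAs encode core subunits of the respiratory chain and ATP synthase, and its rRNAs and tRNAs serve the mitochondrion's own ribosomes. The RNA is made and kept inside mitochondria, which lie outside the nucleus, and its share of counts is a usual measure of how much cytoplasm stays with isolated nuclei or of cell damage. Fragments of mitochondrial DNA have also been copied into the nuclear genome during evolution, where they are annotated as pseudogenes.

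Sequences are shown for 2 reasons: the 4 tRNA genes with the most UFIs were each highest in the fresh preindexed library, and exact nuclear copies went with the near absence of some mRNAs. The tRNA genes, all on the plus strand of the mitochondrial genome (GENCODE M21, GRCm38), are given 5′ to 3′ with the anticodon in capitals. They lie at chrM:1025-1093 (mt-Tv, valine), chrM:3845-3913 (mt-Tm, methionine), chrM:1-68 (mt-Tf, phenylalanine) and chrM:15289-15355 (mt-Tt, threonine).
mt-Tv: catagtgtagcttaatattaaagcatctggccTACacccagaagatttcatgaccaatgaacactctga
mt-Tm: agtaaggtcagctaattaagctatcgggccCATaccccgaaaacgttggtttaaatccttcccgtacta
mt-Tf: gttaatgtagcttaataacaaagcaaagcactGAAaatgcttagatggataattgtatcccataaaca
mt-Tt: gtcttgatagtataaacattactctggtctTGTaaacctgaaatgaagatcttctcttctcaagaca

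The second set compares a window of 60 bases of an mRNA gene with its best annotated nuclear copy, with bases that differ in capitals. mt-Co2, a subunit of cytochrome c oxidase, is shown at chrM:7113-7172 (plus strand) beside Gm28661 at chr1:24615406-24615465 (minus strand). mt-Cytb, the cytochrome b of complex III, is shown at chrM:14245-14304 (plus strand) beside Gm11410 at chr4:80004089-80004148 (plus strand).
mt-Co2: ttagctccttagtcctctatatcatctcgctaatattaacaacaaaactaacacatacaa
Gm28661: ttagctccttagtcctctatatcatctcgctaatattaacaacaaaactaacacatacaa
mt-Cytb: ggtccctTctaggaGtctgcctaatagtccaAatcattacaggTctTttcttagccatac
Gm11410: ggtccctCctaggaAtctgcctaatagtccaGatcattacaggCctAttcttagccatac
The mt-Co2 window has 0 differences from its copy and the mt-Cytb window has 5. The counts of these 2 genes, 6 UFIs and 30352 UFIs, are taken up with the other mRNAs below.

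Every one of the 11198 nuclei held at least 1 mitochondrial UFI, and mitochondrial genes took 1156905 UFIs in all. The share of all UFIs was 1.23% and 1.07% in the frozen libraries without preindex, 0.772% and 0.769% in the frozen preindexed libraries, 0.388% and 0.373% in the fresh libraries without preindex and 0.595% in the fresh preindexed library (95% exact Clopper-Pearson interval 0.593 to 0.598, counting error only). The 4 frozen libraries thus lay above the 3 fresh ones with no overlap, while libraries of one group lay close together.

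The frozen libraries averaged 0.961% ± 0.230 (SD, n = 4) and the fresh libraries 0.452% ± 0.124 (SD, n = 3). The difference was 0.509 percentage points with a two-sided exact permutation p of 0.0286, the smallest that the 35 ways of dividing 7 libraries allow. After Benjamini-Hochberg adjustment over the 6 comparisons of shares and parts the permutation p was 0.0857, so the difference did not pass 0.05. Without preindex the frozen mean was 3.03 times the fresh mean, and with preindex it was 1.29 times the 1 fresh library. The frozen preindexed libraries alone held the kidney-like nuclei, whose shares were 1.90% and 2.07%, and these count in the 1.29. In neuron-like nuclei the frozen preindexed libraries stood at 0.631% and 0.606%, against 0.526% in the fresh preindexed library. Between primers the means were 0.712% ± 0.101 with preindex (SD, n = 3) and 0.766% ± 0.450 without (SD, n = 4), a difference of -0.0542 points (exact permutation p = 0.829), and without the kidney-like and liver-like nuclei it was -0.119 points (exact permutation p = 0.571, adjusted 0.686).

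Depth moved with storage in opposite ways under the 2 primers. Without preindex the fresh libraries were the deeper, with medians of 21127 and 27543 UFIs per nucleus against 10187 and 15385 in the frozen ones, while the fresh preindexed library, at 9011, was shallower than the frozen preindexed ones at 9927 and 14016. Within a library, nuclei with more UFIs had a lower mitochondrial share, with Spearman's rho of -0.161 to -0.246 across nuclei, which share the library and the depth term itself. With every nucleus thinned to 3000 UFIs, which left out 3 nuclei, the difference between frozen and fresh libraries was 0.633 points (exact permutation p = 0.0571, adjusted 0.171). Thinning leaves the expected share of each nucleus unchanged and gives all nuclei equal weight, so it cannot show whether depth affects the share. Neuron-like nuclei alone also kept the storage groups apart. In them the 4 frozen libraries ranged from 0.606% to 0.968% and the 3 fresh ones from 0.326% to 0.526%, a difference of 0.366 points (exact permutation p = 0.0571, adjusted 0.171), and without the kidney-like and liver-like nuclei it was 0.462 points (exact permutation p = 0.0857, adjusted 0.229). In summed libraries, more mitochondrial RNA per nucleus and more nuclei rich in it cannot be told apart.

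**Figure D1:**
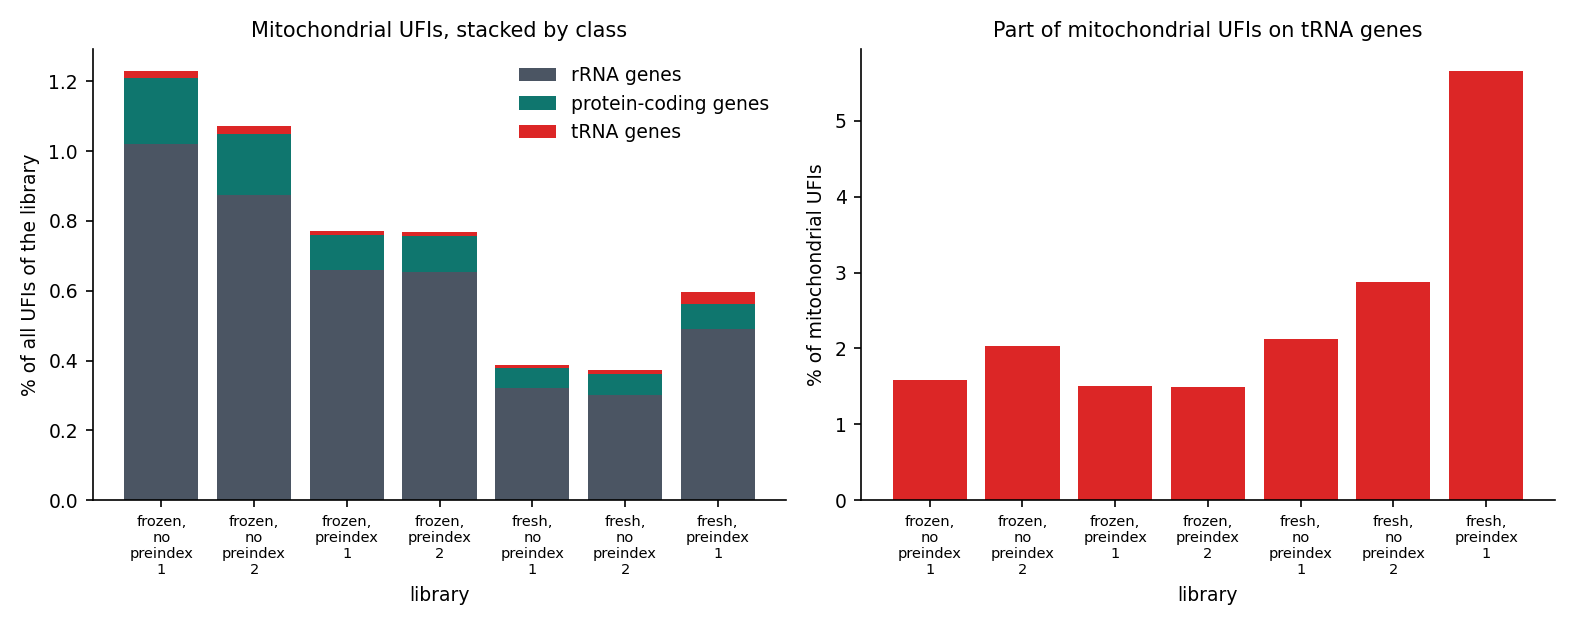
Left, mitochondrial UFIs as a percentage of all UFIs in each of the 7 brain libraries, stacked by class of gene; right, the percentage of mitochondrial UFIs that lie on tRNA genes. The frozen libraries reach 0.769% to 1.23% and the fresh ones 0.373% to 0.595%, and the fresh preindexed library has the tallest tRNA bar, at 5.66%.

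Mean mitochondrial UFIs per nucleus were 152 and 197 in the frozen libraries without preindex, 88.3 and 122 in the frozen preindexed libraries, 96.1 and 122 in the fresh libraries without preindex and 61.7 in the fresh preindexed library. Over both primers together the storage groups overlapped on this count, which is not scaled by depth. Within each primer the frozen libraries were the higher, with 1 fresh library to compare under the preindex. The distribution over nuclei was skewed: medians of the nuclear share were 0.233% to 0.683%, 95th percentiles 1.25% to 4.68% and maxima 10.3% to 54.8%. Nuclei above 5% made up 4.86% and 4.12% of the frozen libraries without preindex, 1.61% and 1.85% of the frozen preindexed, 0.600% and 0.462% of the fresh without preindex and 1.19% of the fresh preindexed library. The 1% of nuclei richest in mitochondrial UFIs held 8.40% to 11.9% of them. Medians over nuclei kept the storage groups apart as well (0.494% to 0.683% frozen, 0.233% to 0.401% fresh).

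Most of these UFIs were ribosomal. mt-Rnr1 and mt-Rnr2, the small and large subunit rRNAs of the mitochondrial ribosome, held 963035 UFIs or 83.2% of the total, protein-coding genes 14.3% and tRNA genes 2.51%. The rRNA part of mitochondrial UFIs was 82.9% and 81.5% in the frozen libraries without preindex, 85.5% and 85.2% in the frozen preindexed, 82.6% and 80.7% in the fresh without preindex and 82.3% in the fresh preindexed library. All 7 libraries thus lay within 5 points of each other. The frozen minus fresh difference was 1.94 points (exact permutation p = 0.229, adjusted 0.343) and the preindex minus no preindex difference 2.40 points (p = 0.114, adjusted 0.229), and neither passed. Without the kidney-like and liver-like nuclei they were 1.92 and 2.39 points.

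mt-Rnr1 (chrM:70-1024) stood at 6535 and 5566 CPM in the frozen libraries without preindex, 3625 and 3552 in the frozen preindexed, 1988 and 1885 in the fresh without preindex and 2693 in the fresh preindexed library. mt-Rnr2 (chrM:1094-2675) stood at 3693 and 3165 CPM, 2980 and 2996 CPM, 1216 and 1127 CPM, and 2207 CPM in the same order. Both were higher in each frozen than in each fresh library. The ratio of mt-Rnr1 to mt-Rnr2 UFIs differed by primer instead: it was 1.77, 1.76, 1.63 and 1.67 in the libraries without preindex and 1.22, 1.19 and 1.22 in those with one. The primer groups did not overlap in the neuron-like, astrocyte-like, oligodendrocyte-like and endothelial-like nuclei either, where the ratio was 1.51 to 1.87 without and 1.16 to 1.28 with preindex. This ratio was looked at after the values had been seen, and it is given without a test.

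The protein-coding genes fell into 3 sets by level. Per length, mt-Cytb (chrM:14145-15288) stood at 171 ± 73.7 CPM per kb (mean ± SD over 7 libraries), mt-Nd2 at 155 ± 78.5, mt-Co1 at 144 ± 68.4, mt-Nd1 and mt-Nd5 both at 139 (± 73.5 and ± 70.8) and mt-Nd4 at 88.0 ± 49.6. The ranges of these 6 genes over the libraries overlapped. mt-Nd1, mt-Nd2, mt-Nd4 and mt-Nd5 encode subunits of complex I, which takes electrons from NADH, and mt-Co1 the catalytic subunit of cytochrome c oxidase. On the same scale mt-Rnr1 stood at 3866 ± 1853 and mt-Rnr2 at 1570 ± 630.

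mt-Nd6, a complex I subunit and the one mRNA gene of the opposite strand (chrM:13552-14070, minus strand), stood at 1.69 ± 0.362 CPM per kb, with 152 UFIs in all. The 7 genes of that strand in the tables, mt-Nd6 and 6 tRNA genes, held 1759 UFIs or 0.152% of the mitochondrial total. The method is described as strand-specific, but the strand setting used in counting is not given in the sources used here.

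The third set was close to 0: mt-Atp6 had 5 UFIs in all 7 libraries together, mt-Co2 6, mt-Nd4l 7, mt-Co3 11 and mt-Nd3 61. They encode a subunit of ATP synthase, 2 subunits of cytochrome c oxidase and 2 of complex I, and all lie in one part of the mitochondrial genome, from mt-Co2 at chrM:7013-7696 to mt-Nd4l at chrM:9877-10173. All 5 have annotated nuclear copies: 98.0% to 100% of their 50-base windows occur letter for letter in another GENCODE transcript, the best match of each being an unprocessed pseudogene on chromosome 1 (Gm28661 for mt-Co2, Gm10925 for mt-Atp6, Gm28437 for mt-Co3, Gm28438 for mt-Nd3 and Gm10222 for mt-Nd4l) in a single stretch from position 24612407 to 24615565. The authors kept uniquely mapped reads only. mt-Co1, with 51.1% of windows copied, and mt-Nd4, with 62.2% (Gm28439, next to that stretch), kept 33998 and 17915 UFIs, while mt-Cytb and mt-Nd1 had 0% of windows copied and mt-Nd2 and mt-Nd5 8.19% and 7.61%.

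Levels were also set per 1000 windows without a copy, as a check on this. mt-Co1 then stood at 46509 UFIs over the 7 libraries, mt-Nd4 at 35687, mt-Cytb at 27719, mt-Nd2 at 26573, mt-Nd5 at 23370 and mt-Nd1 at 21926, so the order of these 6 genes depended on the length used. The paper's reads were longer than a window, so a read holding a copied window could still map uniquely. Where the copy is inexact, as for mt-Co1 (97.6% identity), this scale can thus be too high. The copies themselves had 5 to 29 UFIs where they were in the tables, except Gm13340, a copy related to mt-Co1 on chromosome 2, with 187. mt-Nd6 had 0% of windows copied and was low. mt-Atp8 (chrM:7766-7969), which lies among the 5 copied genes, also had 0% of windows copied and had 0 UFIs. Within annotated transcripts an exact copy was thus not found for every low gene. The best annotated copies of these 2 were inexact, Gm11408 for mt-Nd6 (93.6% identity) and Gm28925 for mt-Atp8 (81.4% identity). The copies of mt-Co2 and mt-Atp6, the mRNA genes on either side of mt-Atp8, lie at chr1:24614885-24615565 and chr1:24613974-24614651. Whether the sequence between these copies holds a copy of mt-Atp8 was not tested. A fragment that matches a gene and its copy equally well is not uniquely mapped, and how many such fragments there were is unknown, so the levels of the 5 copied genes are no measure of their transcripts. Copies outside annotated transcripts were not looked for.

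**Figure D2:**
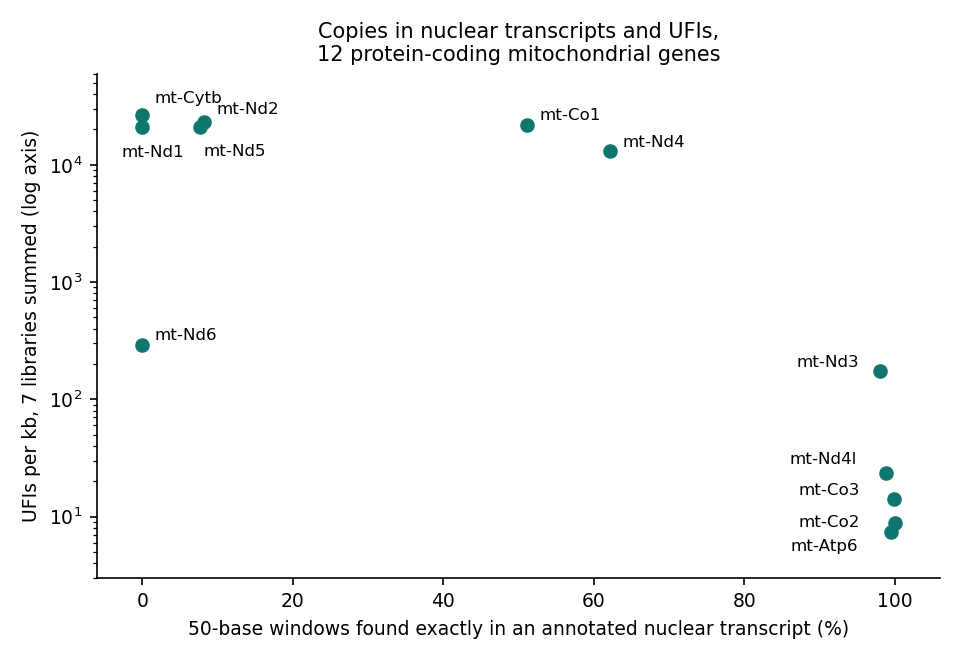
UFIs per kb of gene summed over 7 libraries (log axis) against the percentage of 50-base windows found exactly in an annotated nuclear transcript, 1 point for each of the 12 protein-coding mitochondrial genes. The 5 genes at 98.0% or more lie between 7.34 and 175 UFIs per kb, and the 6 genes at 62.2% or less other than mt-Nd6 between 13001 and 26531. mt-Atp8, with 0% of windows copied and 0 UFIs, is not plotted.

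Of the 18 tRNA genes in the tables, mt-Tv held 15385 UFIs of the tRNA total of 28999, followed by mt-Tm with 4070, mt-Tf with 2399, mt-Tt with 2083 and mt-Tl1 with 1404. A further 8 (mt-Tr, mt-Tl2, mt-Tq, mt-Ti, mt-Ta, mt-Tp, mt-Tc and mt-Ts2) had 34 to 902 UFIs and passed the filter on low counts, and the remaining 5 had 1 to 10. Per length, mt-Tv stood at 1315 ± 760 CPM per kb, near mt-Rnr2. mt-Tv lies between mt-Rnr1 and mt-Rnr2 with no base between them, mt-Tf lies just before mt-Rnr1 and mt-Tl1 just after mt-Rnr2. How a fragment that spans 2 such genes was assigned is not given in the sources used here.

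**Figure D3:**
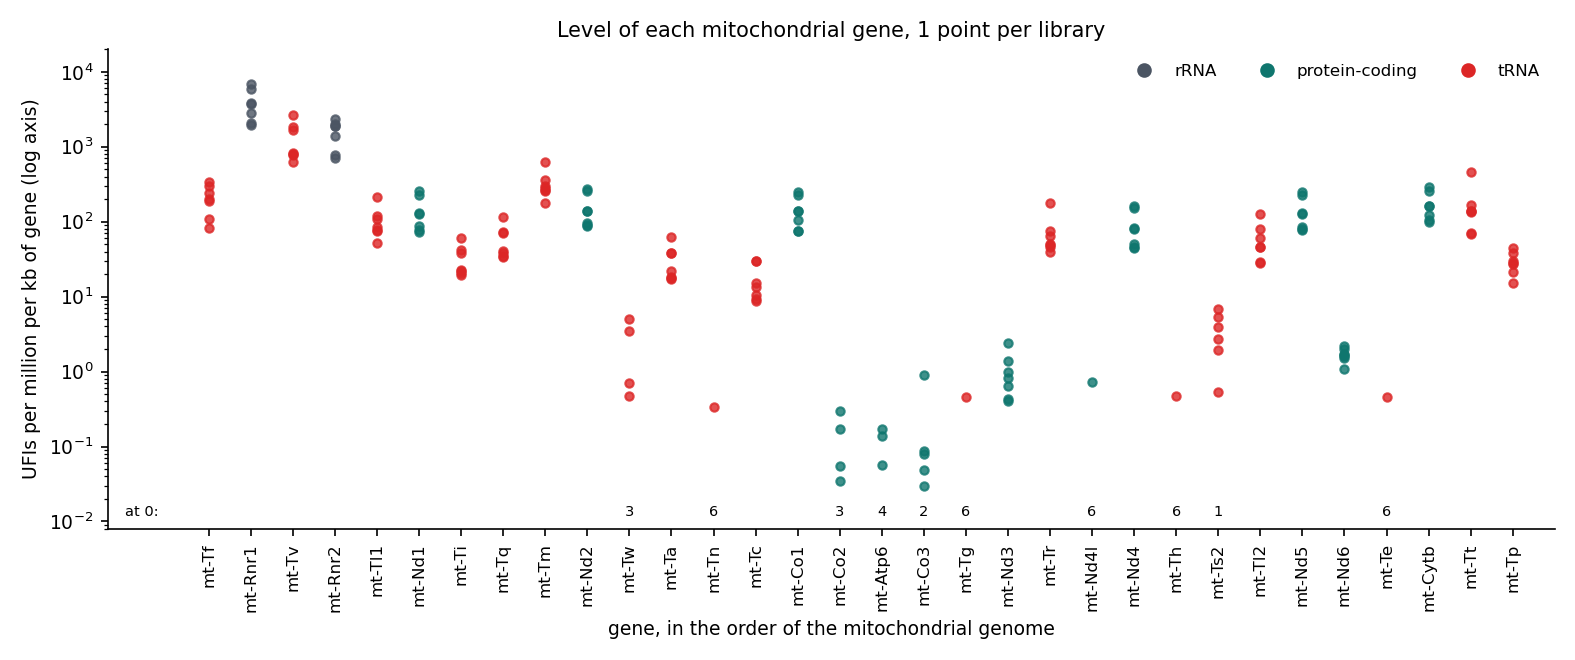
CPM per kb of gene (log axis) for the 32 mitochondrial genes in genome order, 1 point per library, with the number of libraries at 0 printed at the bottom. mt-Rnr1, mt-Tv and mt-Rnr2 are at the top, the copied genes mt-Co2 to mt-Nd4l are near 0, and mt-Nd6 is low.

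The tRNA part of mitochondrial UFIs was 1.58% and 2.03% in the frozen libraries without preindex, 1.50% and 1.49% in the frozen preindexed, 2.12% and 2.87% in the fresh without preindex and 5.66% in the fresh preindexed library. Frozen libraries lay below fresh ones with no overlap, in the opposite direction to the total share, and the fresh preindexed library lay far above the other 6. The frozen minus fresh difference was -1.90 points (exact permutation p = 0.0286, adjusted 0.0857) and did not pass, and it was -0.848 points without the fresh preindexed library. The preindex minus no preindex difference was 0.732 points (exact permutation p = 0.800, adjusted 0.829), and -0.657 points without that library. Without the kidney-like and liver-like nuclei the differences were -1.91 and 0.723 points.

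mt-Tv stood at 116 and 127 CPM in the frozen libraries without preindex, 55.3 and 53.2 in the frozen preindexed, 43.2 and 57.2 in the fresh without preindex and 183 in the fresh preindexed library. mt-Tt stood at 9.30 and 11.3 CPM, 9.36 and 9.09 CPM, 4.53 and 4.69 CPM, and 30.8 CPM in the same order. mt-Tm stood at 20.3 and 24.6 CPM, 18.5 and 19.3 CPM, 12.1 and 17.5 CPM, and 43.3 CPM. In all 3 the fresh preindexed library was the highest of the 7. It had 3.65 times the mean of the fresh libraries without preindex for mt-Tv, 6.68 times for mt-Tt and 2.93 times for mt-Tm. The same ratio was 1.88 for mt-Rnr2, 1.39 for mt-Rnr1, 1.21 for mt-Cytb and 1.08 for mt-Nd5. mt-Tp, a tRNA gene of the opposite strand, had 0.831 times, while mt-Ta, mt-Tq and mt-Tc of that strand had 3.49, 3.41 and 2.43 times. In that library 90.7% of nuclei had a tRNA UFI, within the 63.8% to 93.9% of the other 6. The 1% of its nuclei with the most tRNA UFIs held 6.84% of them, near the 4.31% to 7.94% of the other 6.

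Gene by gene, UFIs were summed per library and fitted with edgeR over 19299 genes with storage and primer as terms, and 23 members passed the filter on low counts: 8 protein-coding, 2 rRNA and 13 tRNA genes. For frozen against fresh 0 of the 23 passed an adjusted p of 0.05 in edgeR, beside 0.207% of all genes. At an unadjusted p under 0.05 there were 8, the 6 well counted mRNAs and both rRNAs, all higher in frozen libraries, beside 15.0% of all genes in either direction. DESeq2 called 6 of the 23, beside 1.64% of all genes, and without the kidney-like and liver-like nuclei edgeR called 0. Their log2 fold changes ran from 0.99 (mt-Cytb, SE 0.21, edgeR adjusted p = 0.121) to 1.34 (mt-Nd4, SE 0.23, edgeR adjusted p = 0.0802). The tRNA genes had a median of -0.23, the protein-coding genes of 1.13 and the rRNAs of 1.11, beside 0.01 over all genes tested.

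In neuron-like nuclei alone the same fit called 5 of 22 members, all higher in frozen libraries, beside 0.183% of all genes called higher. They were mt-Nd4 at a log2 fold change of 1.25 (SE 0.16, edgeR adjusted p = 0.00873), mt-Nd5 at 1.06, mt-Nd1 at 1.08, mt-Nd2 at 1.04 and mt-Cytb at 0.89.

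For preindex against no preindex 0 of the 23 passed an adjusted p of 0.05 in edgeR, beside 15.8% of all genes. Of the 23, 0 had an unadjusted p under 0.05 in edgeR, and DESeq2 called 0. The medians were -0.30 for protein-coding genes, 0.10 for rRNAs and 0.48 for tRNA genes.

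The frozen minus fresh difference was then compared between primers, as the log2 effect of storage with preindex minus that without. The fresh preindexed group is 1 library, which the fit assumes to vary like the libraries of the other groups, so its calls set that library against the others and the library and the condition cannot be told apart. The fit called 20 of the 23 members, all below 0, beside 6.49% of all genes called below 0. The 20 were 7 of 8 protein-coding genes, both rRNAs and 11 of 13 tRNA genes, and mt-Nd6, mt-Tp and mt-Ts2 did not pass. One of the 7 was mt-Nd3, whose 61 UFIs are no measure of its transcripts because of its nuclear copy. Without the kidney-like and liver-like nuclei 20 of 23 were called, beside 4.00% of all genes, and in neuron-like nuclei alone 20 of 22, beside 2.75%, all below 0, both fits being chosen after seeing the data. mt-Tv had the lowest adjusted p, at a log2 value of -3.12 (SE 0.13, edgeR adjusted p = 1.34e-09), followed by mt-Tt at -3.02 (SE 0.16, edgeR adjusted p = 1.29e-08), while mt-Rnr1 stood at -1.33 (SE 0.11, edgeR adjusted p = 1.25e-06) and mt-Nd5 at -1.11 (SE 0.08, edgeR adjusted p = 4.26e-07). The medians were -2.53 for tRNA genes, -1.27 for rRNAs and -1.19 for protein-coding genes, beside 0.02 over all genes.

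Without the fresh preindexed library, 16 of 21 members were called higher in frozen than in fresh libraries in edgeR, beside 2.33% of all genes, and storage was then compared among libraries without preindex. mt-Nd4 stood at a log2 fold change of 1.86 (SE 0.05, edgeR adjusted p = 7.78e-10), mt-Rnr1 at 1.69 (SE 0.07), mt-Rnr2 at 1.60 (SE 0.07) and mt-Tv at 1.32 (SE 0.09). mt-Nd6, mt-Tc, mt-Ti, mt-Tp and mt-Tr did not pass. The same fit compares primers in frozen tissue alone, where the preindexed libraries hold the kidney-like nuclei. Cerebellar granule neuron markers summed there to 164 and 177 CPM without preindex and to 9.81 and 11.2 CPM with it. The part of these differences in the primer values was not tested. In this comparison 15 of 21 were lower with preindex than without, beside 13.9% of all genes called lower. Among them were mt-Tv at -1.13 (SE 0.09), mt-Nd4 at -0.91 (SE 0.05) and mt-Rnr1 at -0.72 (SE 0.07), while mt-Rnr2 stood at -0.16 (SE 0.07) and did not pass. In fresh tissue the 1 preindexed library had 3.65 times the mean without preindex for mt-Tv, 1.13 for mt-Nd4, 1.39 for mt-Rnr1 and 1.88 for mt-Rnr2, against 0.831 for mt-Tp.

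**Figure D4:**
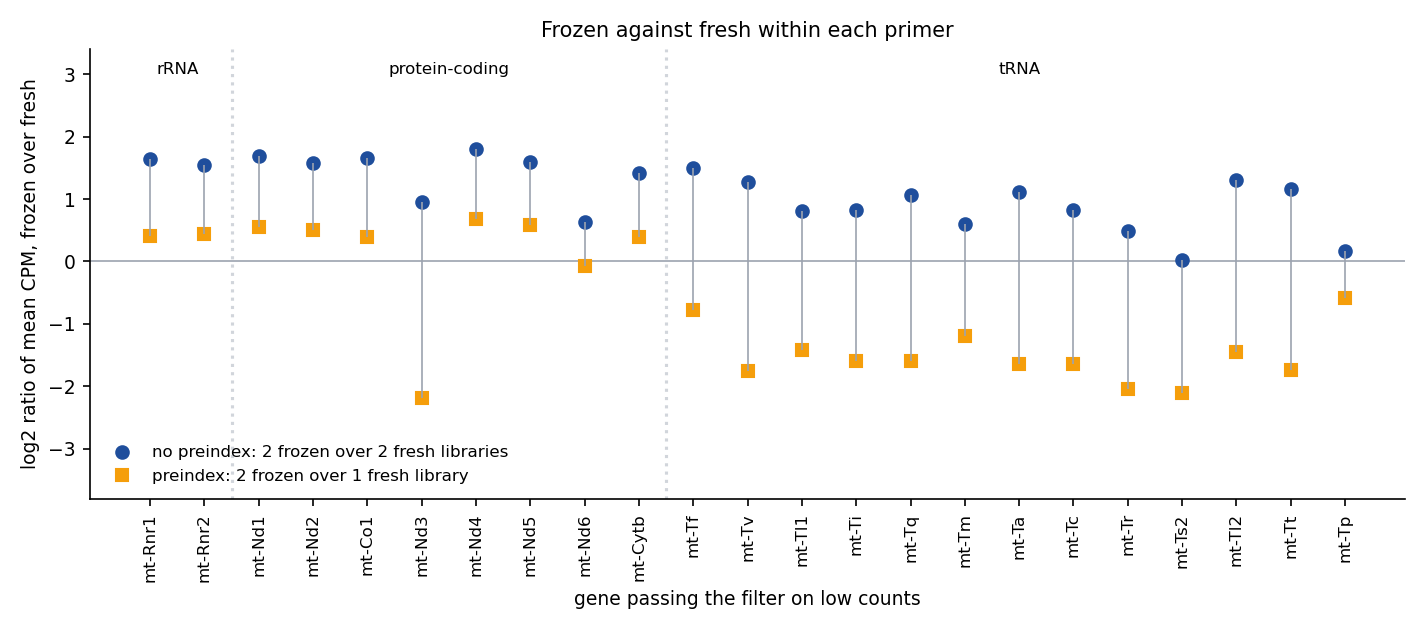
Log2 ratio of mean CPM, frozen over fresh, for the 23 members that passed the filter, without preindex (circles) and with preindex (squares). For mt-Rnr1 the ratio is 1.64 without and 0.41 with preindex and for mt-Tv 1.28 and -1.75, and squares of the tRNA genes lie below 0.

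Genes of the nuclear genome with related roles are given for comparison. Nuclear-encoded subunits of the respiratory chain and ATP synthase took 0.0907% to 0.101% of UFIs in the 7 libraries. Of 77 tested 0 passed for storage in edgeR, with 1 at an unadjusted p under 0.05, 0 in DESeq2 and a median log2 fold change of 0.03. Ndufs4 stood at 0.03 (SE 0.04), Atp5c1 at 0.07 (SE 0.05) and Ndufs1 at 0.05 (SE 0.07). For the primer 8 of the 77 passed, 2 higher and 6 lower, and for the interaction 2, beside 15.8% and 16.4% of all genes. Of 30 genes of mitochondrial DNA replication, transcription and RNA processing, 0 passed for storage in edgeR (1 at an unadjusted p under 0.05, DESeq2 0), 2 were lower with preindex, beside 7.88% of all genes, and 2 passed for the interaction.

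Genes of cytosolic ribosomal proteins, whose mature mRNAs are found mostly in the cytoplasm, were also summed. By the paper's methods reads were assigned to whole genes, and the paper reports many intron reads. Their UFIs can thus include unspliced RNA in the nucleus and do not measure cytoplasmic RNA alone. These genes took 0.0233% and 0.0241% of UFIs in the frozen libraries without preindex, 0.0180% and 0.0186% in the frozen preindexed, 0.0258% and 0.0272% in the fresh without preindex and 0.0206% in the fresh preindexed library. Their order was the reverse of the mitochondrial one within each primer, with fresh libraries the higher. Of 80 tested 0 passed for storage in edgeR (9 at an unadjusted p under 0.05, DESeq2 0), with a median of -0.21, and 12 passed for the primer, all lower with preindex, which is 15.0% of the list beside 7.88% of all genes called lower. RNAs kept in the nucleus (Malat1, Meg3, Rn7sk, Kcnq1ot1 and Neat1) took 0.903% to 1.03% of UFIs. Of these 5, 0 passed for storage in edgeR (2 at an unadjusted p under 0.05, DESeq2 0), and for the primer Malat1 and Kcnq1ot1 were higher with preindex (log2 fold changes of 0.34, SE 0.06, and 0.35, SE 0.05) and Rn7sk was lower (-1.08, SE 0.06). The part of cytoplasm in the mitochondrial result was not tested.

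Nuclei were grouped into 31 clusters made without the mitochondrial genes, and clusters were named from markers as neuron-like (9710 nuclei), oligodendrocyte-like (275), astrocyte-like (256), endothelial-like (162), cerebellar granule neuron-like (145) and OPC-like (107), OPC being the oligodendrocyte precursor cell, besides the kidney-like and liver-like nuclei and 68 nuclei with no name. Microglia had no cluster of their own. Neuron-like nuclei had the lowest mean share of the named kinds, 0.611% ± 0.241 (SD over 7 libraries).

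Endothelial-like nuclei, of a cluster led by Flt1 (a receptor of endothelium), Ptgds (a prostaglandin synthase) and Rgs5 (a gene of pericytes), had the highest share. It was 9.74% and 5.07% in the frozen libraries without preindex, 3.91% and 5.70% in the frozen preindexed, 2.19% and 1.74% in the fresh without preindex and 8.12% in the fresh preindexed library, with 17 to 30 nuclei each. In the same order neuron-like nuclei stood at 0.968% and 0.867%, 0.631% and 0.606%, 0.354% and 0.326%, and 0.526%. Endothelial-like nuclei were thus 5.34 to 15.4 times higher within a library (median 6.20), a mean difference of 4.60 points ± 2.78 (SD, n = 7) that was positive in 7 of 7 libraries (two-sided exact sign-flip permutation p = 0.0156, the smallest that 7 libraries allow, and 0.0208 adjusted over 4 kinds). Per nucleus they held 485 ± 151 mitochondrial UFIs against 102 ± 34.3, although their median depth was lower, 5793 to 18979 UFIs against 9070 to 28192. These nuclei were 0.903% to 3.14% of a library and held 3.87% to 13.4% of its mitochondrial UFIs. Without them the frozen libraries ranged from 0.734% to 1.09% and the fresh ones from 0.356% to 0.551%.

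The name of these nuclei was less well founded in some libraries. The 7 endothelial markers included Rgs5, so the name does not set endothelial cells apart from pericytes. All 7 were 2-fold up in the cluster over all libraries. Inside it, however, they summed to only 337 and 542 CPM in the frozen libraries without preindex (49 and 151 UFIs). They summed to 2978 and 5162 CPM in the frozen preindexed, 2497 and 2350 in the fresh without preindex and 8596 in the fresh preindexed library. Neuron markers summed to 3297, 3710, 1888, 1062, 3610, 2519 and 779 CPM in the same order, against 5487 to 5902 in neuron-like nuclei. The cluster held 3.14% and 2.88% of the nuclei of the frozen libraries without preindex and 0.903% to 1.70% elsewhere. It thus held the largest part of the nuclei where its markers were lowest. Without those 2 libraries, an alternative chosen after seeing the data, endothelial-like nuclei exceeded neuron-like nuclei by 3.85 points in the other 5 (exact sign-flip permutation p = 0.0625, the smallest that 5 libraries allow, adjusted 0.0833). The part of the low marker level in the mitochondrial share was not tested.

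Astrocyte-like nuclei had 1.17% ± 0.560 (SD, n = 7 libraries), with 2.11% and 1.78%, 0.977% and 0.891%, 0.803% and 0.561%, and 1.08% in the library order above. They exceeded neuron-like nuclei by 0.559 points ± 0.340 in 7 of 7 libraries (exact sign-flip permutation p = 0.0156, adjusted 0.0208), a median of 2.05 times. Oligodendrocyte-like nuclei had 3.68% and 2.08%, 0.887% and 0.887%, 0.565% and 0.366%, and 1.05%, and exceeded neuron-like nuclei by 0.747 points ± 0.946 in 7 of 7 libraries (exact sign-flip permutation p = 0.0156, adjusted 0.0208), by 1.12 to 3.80 times. That difference was 0.420 points without frozen library 1 lacking a preindex, still with an adjusted p under 0.05 (0.0417, exact sign-flip permutation), and 0.262 points without both such libraries, where the astrocyte-like one was 0.373 points. OPC-like nuclei exceeded neuron-like nuclei by 0.281 points ± 0.146 in the 5 libraries with at least 10 of them (exact sign-flip permutation p = 0.0625, the smallest that 5 libraries allow, adjusted 0.0625) and did not pass.

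Kinds found in few libraries are given as values without a test. Cerebellar granule neuron-like nuclei stood at 1.67% and 2.06% in the frozen and 0.482% and 1.29% in the fresh libraries without preindex, 1.36 to 3.96 times the neuron-like nuclei of the same library. The fresh preindexed library held 3 such nuclei and the frozen preindexed libraries 0. Kidney-like nuclei stood at 1.90% and 2.07% in the frozen preindexed libraries, 3.01 and 3.42 times neuron-like nuclei, and the 20 liver-like nuclei at 1.42% (95% exact interval 1.35 to 1.50, counting error only).

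**Figure D5:**
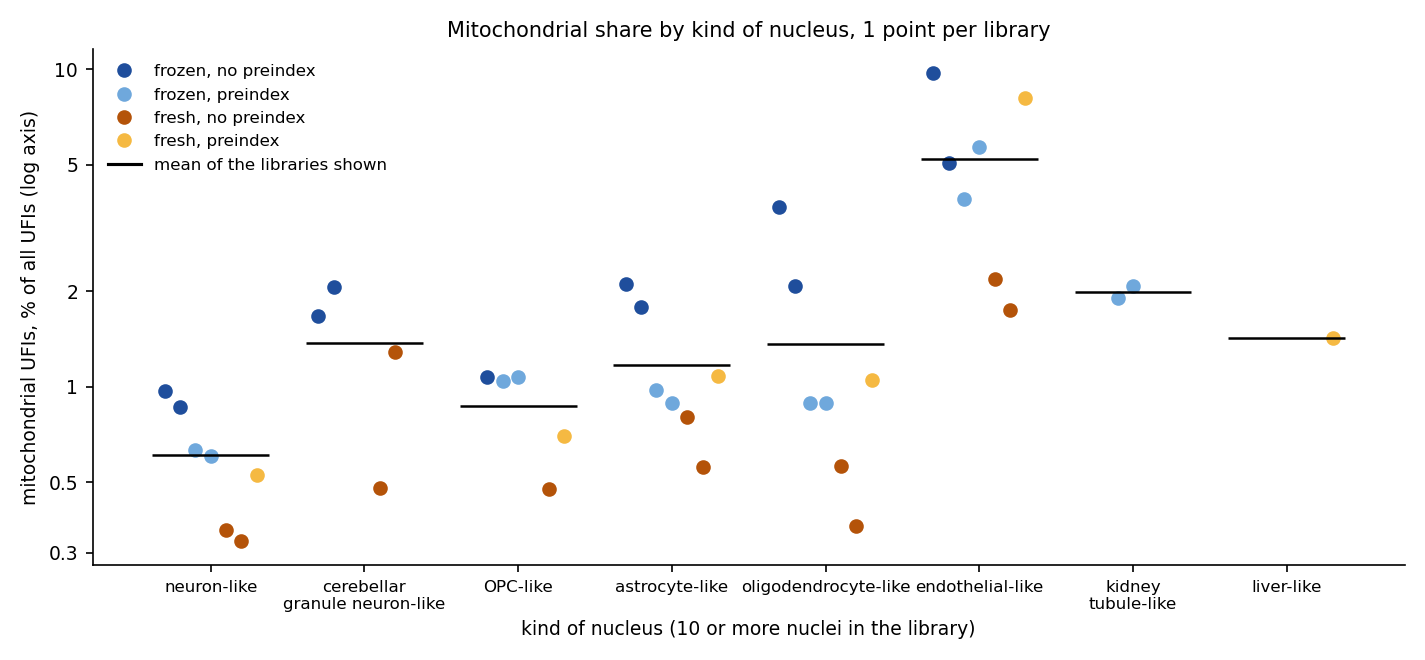
Mitochondrial UFIs as a percentage of all UFIs (log axis) by kind of nucleus, 1 point per library with at least 10 nuclei of the kind, coloured by storage and primer; black lines are means of the points. Endothelial-like nuclei reach 1.74% to 9.74% and neuron-like nuclei 0.326% to 0.968%, and in the 3 tested kinds that passed every library lies above its own neuron-like value.

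Within a kind the libraries kept much of the same order. In neuron-like, astrocyte-like and oligodendrocyte-like nuclei the frozen libraries without preindex were the highest and the fresh libraries without preindex the lowest, while in endothelial-like nuclei the fresh preindexed library, at 8.12%, lay above 3 of the 4 frozen ones. In astrocyte-like and oligodendrocyte-like nuclei it lay above both frozen preindexed libraries too, so storage groups did not separate there.

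The rRNA part of mitochondrial UFIs had means of 82.4% (endothelial-like) to 84.3% (OPC-like) in the 4 tested kinds, with 82.9% ± 1.71 in neuron-like nuclei (SD, n = 7), and 0 of 4 kinds differed from neuron-like nuclei (exact sign-flip permutation p of 0.0625 to 0.266, adjusted 0.188 to 0.266). The tRNA part averaged 2.63% ± 1.59 in neuron-like and 1.27% ± 0.706 in endothelial-like nuclei (SD, n = 7 libraries), and it was lower in the latter in 7 of 7 libraries, from 0.621% against 1.81% in frozen library 1 without preindex to 2.66% against 6.02% in the fresh preindexed library, a difference that was not tested. Across nuclei of a library, rRNA and protein-coding UFIs rose together, with Spearman's rho of 0.787 to 0.924, and tRNA and rRNA UFIs less closely, with rho of 0.309 to 0.543, given as a description since nuclei of a library share depth and tRNA counts are sparse.

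Among the 22 neuron-like clusters, shares relative to all neuron-like nuclei of the same library averaged from 0.731 to 1.68. A cluster led by Foxp2, Tshz1 and Pbx3 stood at 1.68 ± 0.161 (SD, n = 5 libraries), one led by Pde11a, Ndnf and Syt9 at 1.63 ± 0.506 (n = 6) and one led by Glis3, Trpc6 and Chst9 at 1.59 ± 0.216 (n = 7), which did not differ beyond their spread. At the lower end stood clusters led by 4921539H07Rik, Gm2115 and Fibcd1 at 0.731 ± 0.171 (n = 7), by Gm19410, L3mbtl4 and Fam19a1 at 0.742 ± 0.220 (n = 6) and by Gm44905, 4930467D21Rik and Ccbe1 at 0.743 ± 0.232 (n = 6). The lowest libraries of the 3 high clusters stood at 1.44, 1.08 and 1.23 and the highest of the 3 low ones at 1.09, 1.04 and 1.16, so the Pde11a cluster overlapped with the low ones. Median depths were 10555 to 12497 UFIs in the high and 12705 to 18851 in the low clusters, and the part of depth in this order was not tested.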

How the data were processed

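The deposited brain files hold raw UFI counts per gene and nucleus, made by the authors by trimming, alignment, keeping uniquely mapped reads, assignment to genes and UFI counting. The submitters' processing notes name cutadapt, STAR, featureCounts and UMI-tools, the builds GRCm38 (mm10) and GRCh38, and no versions; the methods text names only the human build for this step. The species-mix files were not used. The members and lists were chosen with earlier results of these data known.

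All 11198 nuclei were kept and no doublet caller was run. Nuclei were clustered in scanpy 1.11.5 without mitochondrial genes (scaled to 10000 counts, 2000 variable genes, 40 principal components, 10 neighbours, Leiden resolution 0.4) and named where at least 3 markers, and 50% of the list, were 2-fold above the other clusters with 1 among the 10 leading genes, or for neurons where at least 3 markers exceeded their average cluster level and the leading genes held none of another list. UFIs summed per library were tested with edgeR 4.0.16 (filterByExpr, TMM, glmQLFTest, Benjamini-Hochberg over all genes) and DESeq2 1.42.0 as an alternative. Data were also simulated with the same dispersion for every gene and a storage effect without interaction with the primer. On them edgeR recovered 171 of 200 genes changed by 1.5 log2 units for storage, with 2.84% false calls. In the brain libraries 16.4% of all genes were called for that interaction, so this recovery rate does not carry over to the storage test. Shares were tested over libraries by exact permutation, and kinds by exact sign flips within libraries with at least 10 nuclei. Nuclear copies were found as exact 50-base windows in GENCODE M21 transcripts. A replicate block, scalings, filters, thinning and leaving out each library were tried. Named are all protein-coding and rRNA members, tRNA genes that passed the filter and the most counted genes of other lists. Counting error is small at this depth (8605214 or more UFIs per library).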

Additional observations from a re-analysis of the deposited data

Results flagged for a closer look

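For 20 members edgeR's interaction of storage and primer passed an adjusted p of 0.05, given as the log2 effect of storage with preindex minus that without. The protein-coding values were -1.36 for mt-Co1, -1.11 for mt-Cytb, -1.22 for mt-Nd1, -1.17 for mt-Nd2, -3.32 for mt-Nd3 (61 UFIs in all, a copied gene whose level is no measure of its transcripts), -1.22 for mt-Nd4 and -1.11 for mt-Nd5. The rRNA values were -1.33 for mt-Rnr1 and -1.21 for mt-Rnr2. The tRNA values were -2.83 for mt-Ta, -2.35 for mt-Tc, -2.37 for mt-Tf, -2.53 for mt-Ti, -2.28 for mt-Tl1, -2.82 for mt-Tl2, -1.88 for mt-Tm, -2.73 for mt-Tq, -2.64 for mt-Tr, -3.02 for mt-Tt and -3.12 for mt-Tv. The fresh preindexed group is 1 library, assumed in the fit to vary like the others, so the library and the condition cannot be told apart.

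Of 60 groups of 4 to 7 values checked for a value far from the others, 2 held one, where chance gives about 1 in 20. Frozen library 2 without preindex had a tRNA part of 2.03% of mitochondrial UFIs, above the other 3 frozen libraries. The same library had mt-Tt at 11.3 CPM, also above the other 3.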

How the results depend on the processing

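For frozen against fresh, 0 members were called in edgeR, 6 with DESeq2, 10 with no filter on low counts (9 higher and 1 lower, beside 5.62% of all genes), 5 in neuron-like nuclei alone, 16 in the libraries without preindex alone (chosen after seeing the data) and 0 to 16 when leaving out 1 library, the 16 without the fresh preindexed library. For the primer the calls were 15 with no filter (10 higher and 5 lower, beside 13.9% of all genes), 1 in neuron-like nuclei alone (mt-Tt, higher) and 0 to 15 when leaving out 1 library, the 15, all lower, without the fresh preindexed library. Without that library the primers are compared in frozen tissue alone. The cause of the change in calls with no filter was not tested.

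The replicate block called 0 members for either factor. Replicate numbers share only a number: deviations of same-numbered libraries correlated at -0.0502 to 0.0264 over 16161 genes.

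The primer difference of the share, -0.0542 points, turned to 0.0107 points for the median over nuclei, to 0.0965 on the log2 scale and ranged from -0.185 to 0.101 when leaving out 1 library, above 0 without either frozen library lacking a preindex or without the fresh preindexed one. That of the tRNA part ranged from -0.657, without the fresh preindexed library, to 1.43. Without both frozen libraries lacking a preindex (chosen after seeing the data), differences from neuron-like nuclei were 3.85 points for endothelial-like, 0.373 for astrocyte-like and 0.262 for oligodendrocyte-like nuclei, and 0 kinds passed, since 5 libraries cannot reach p under 0.05. OPC-like nuclei passed at resolution 1.2 (0.215 points) and with 20 principal components (0.172 points). With mitochondrial genes kept in the clustering, 1 of the 2 kinds that could be compared passed, as no cluster there was named endothelial-like or astrocyte-like. The rRNA part of endothelial-like nuclei turned to 0.104 points with 20 principal components and 0.319 points for the median over nuclei.

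Leaving out 1 library, storage log2 values ranged from -0.67 to 1.15 for mt-Ta, -0.57 to 0.83 for mt-Tl1, -0.43 to 1.33 for mt-Tl2, -0.51 to 0.64 for mt-Tm, -0.55 to 1.09 for mt-Tq, -0.68 to 1.23 for mt-Tt and -0.59 to 1.32 for mt-Tv. Among libraries without preindex alone they were 1.16, 0.83, 1.33, 0.65, 1.10, 1.23 and 1.32. Primer values ranged from -0.91 to 0.91 for mt-Ta, -0.47 to 0.93 for mt-Tf, -0.97 to 0.69 for mt-Ti, -0.55 to 1.09 for mt-Tl2, -0.83 to 0.79 for mt-Tq, -0.68 to 1.04 for mt-Tr and -1.13 to 0.75 for mt-Tv. The highest storage and lowest primer values came without the fresh preindexed library. Over all alternative fits, not only those leaving out 1 library, a sign changed in 47 further cases where the gene passed in neither fit. Of 240 recomputed main values, 217 kept their direction and their side of the threshold, or a count within 1.5 times.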
